A study of Mus musculus with 47 samples.

Results

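The proteasome genes examined here were chosen by name, as the rows of the deposited tables whose gene name is Psm followed by a letter from a to g and a number. The rule matched 48 of the 48795 genes in the files. Of these, 47 had at least 10 counts in at least 7 libraries and all 47 were tested, against 19174 genes tested in all. The exception was Psmb11, the thymus-specific catalytic subunit, which reached 10 counts in 3 libraries.

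The proteasome is the protease that degrades ubiquitin-tagged proteins. Its barrel, the 20S core, is built of alpha and beta subunits, and the beta subunits Psmb5, Psmb6 and Psmb7 carry the active sites. The 19S cap recognises tagged proteins through its non-ATPase subunits and unfolds them with its ring of ATPases, other activators can take the place of the cap, and dedicated chaperones help to assemble both particles. Interferon induces Psmb8, Psmb9 and Psmb10, which replace the constitutive active sites in the immunoproteasome and change the peptides offered to MHC class I. In Huntington's disease, aggregates of mutant huntingtin carry ubiquitin, and proteasome genes have been studied for that reason.

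RNA was sequenced from the cerebral cortex of 47 C57BL mice, 24 male and 23 female, at 6 months of age. The genotypes were Q140, Q140 Ccdc82+/-, Q140 Ccdc82-/-, Ccdc82+/-, Ccdc82-/- and WT, with 8 mice each (4 of each sex) except Q140 Ccdc82-/-, which had 7 (4 male and 3 female). Q140 mice carry an expanded CAG repeat knocked into 1 copy of Htt, labelled Het (Q140) KI, and no group was homozygous for it. Ccdc82+/- and Ccdc82-/- mice lack 1 or both working copies of Ccdc82, a gene for a coiled-coil protein. The sources used here do not give the deleted part of that gene, nor whether mice shared litters.

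The libraries held 43554594 to 61370843 counts, with a median of 50473683. Ccdc82 itself was lower in Ccdc82-/- mice, pooled over mice with and without Q140, by a log2 change of -1.56 (edgeR adjusted p = 3.14e-33) and in Ccdc82+/- mice by -0.52 (adjusted p = 1.14e-13). Htt was lower with Q140 by -0.074 (adjusted p = 0.0032). Defining markers of cortical excitatory neurons were all tested (5 of 5), as were those of striatal medium spiny neurons (5 of 5), whose summed level had a median of 136 CPM in WT (CPM, counts scaled to library size after TMM normalization). The summed excitatory markers had medians of 5707 CPM in Q140, 5537 CPM in Q140 Ccdc82+/- and 5574 CPM in Q140 Ccdc82-/-, against 5863 CPM in Ccdc82+/-, 5791 CPM in Ccdc82-/- and 5943 CPM in WT. Their ranges ran from 5496 to 5957 CPM in Q140, 5382 to 5888 CPM in Q140 Ccdc82+/- and 5325 to 5771 CPM in Q140 Ccdc82-/-. Without Q140 they ran from 5581 to 6223 CPM in Ccdc82+/-, 5651 to 5960 CPM in Ccdc82-/- and 5812 to 6076 CPM in WT. Every Q140 Ccdc82-/- mouse lay below every WT mouse. Each other range with Q140 overlapped each range without it, and that of Q140 Ccdc82-/- overlapped those of Ccdc82+/- and Ccdc82-/-. Summed oligodendrocyte markers (5 of 5 tested) had medians of 2020, 2082 and 1995 CPM in the same order with Q140, against 2171, 2105 and 2162 CPM without. Summed microglial markers (6 of 6 tested) had medians of 280.1, 283.1 and 273.1 CPM in the same order with Q140, against 275.5, 273.2 and 278.8 CPM without. No sum was tested, and the part of these markers in the results was not tested. In whole tissue, fewer cells of a type and less RNA per cell cannot be told apart.

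Windows at the RefSeq start of the genes whose values are described most closely are printed first, to set inducible beside constitutive active-site genes. They lie on GRCm38.p6 from 250 bases before to 50 after the annotated start, 5′ to 3′ on the gene's strand. Capitals mark matches, on either strand, to 5 motifs searched by their letters: AANNGAAA (the core of interferon-stimulated elements), TGANNNNGC (the antioxidant element core, also read by Nfe2l1, the factor that raises proteasome genes when the proteasome is impaired), CCAAT (the CCAAT box), TATAAA (the TATA box) and GGGCGG (the GC box). Psmb8, chr17:34197945-34198244, plus strand, and Psmb9, chr17:34187281-34187580, minus strand, are the immunoproteasome subunits, and Psmb5, chr14:54617946-54618245, minus strand, is the constitutive counterpart of Psmb8. The Psmb8 and Psmb9 windows lie inside the longer gene spans of the GENCODE annotation given further on, because the RefSeq starts used lie inside those spans.
Psmb8: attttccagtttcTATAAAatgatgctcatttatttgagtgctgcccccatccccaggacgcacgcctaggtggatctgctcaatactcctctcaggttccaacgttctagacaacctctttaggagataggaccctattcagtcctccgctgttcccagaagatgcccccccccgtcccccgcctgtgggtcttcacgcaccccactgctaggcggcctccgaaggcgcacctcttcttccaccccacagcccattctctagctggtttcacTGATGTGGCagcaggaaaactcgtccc
Psmb9: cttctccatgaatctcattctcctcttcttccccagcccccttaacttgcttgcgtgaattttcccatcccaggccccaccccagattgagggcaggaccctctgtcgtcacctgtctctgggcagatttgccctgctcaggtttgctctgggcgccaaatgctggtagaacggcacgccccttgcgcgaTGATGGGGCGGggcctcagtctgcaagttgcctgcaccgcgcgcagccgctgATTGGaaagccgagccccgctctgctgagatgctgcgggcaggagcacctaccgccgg
Psmb5: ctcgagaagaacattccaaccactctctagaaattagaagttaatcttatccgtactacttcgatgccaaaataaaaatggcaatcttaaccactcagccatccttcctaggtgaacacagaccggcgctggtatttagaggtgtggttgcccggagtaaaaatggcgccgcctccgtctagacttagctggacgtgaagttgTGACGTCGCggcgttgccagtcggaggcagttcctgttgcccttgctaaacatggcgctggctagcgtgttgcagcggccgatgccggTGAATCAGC

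Positions are those of the first base of a match relative to the annotated start. The Psmb8 window held TATAAA (-237) and TGANNNNGC (23). That of Psmb9 held TGANNNNGC (-60) and GGGCGG (-55), which overlap by several letters, and a CCAAT on the opposite strand (-8). The Psmb5 window held TGANNNNGC 2 times (-47 and 41). Positive positions lie after the start, and whether any match works as an element was not tested. None of the 3 windows held AANNGAAA, which says only that these letters are not within these bases. The table had a window for 40 of the 48 genes, 43 windows in all. TGANNNNGC was in 25 of these 43 windows (58.1%), against 41.3% of the 32851 mouse promoter windows. GGGCGG was in 24 (55.8%), against 35.7% of all windows. AANNGAAA was in 13 (30.2%, against 23.9%), CCAAT in 14 (32.6%, against 37.4%) and TATAAA in 4 (9.3%, against 13.6%). The Psmb9 window overlapped that of Tap1, the peptide transporter gene transcribed away from it, over 275 bases.

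Psmb8 and Psmb9 stood far below the constitutive subunits other than Psma8 and Psmb11 in WT cortex, and Psmb10 did not. Levels are given as the authors' deposited FPKM in the 8 WT mice, which divide counts by a gene length and so can be compared between genes. The medians over genes were 46.3 FPKM for the 6 ATPases of the 19S cap, 28.9 FPKM for the 7 tested constitutive beta subunits, 21.2 FPKM for the 11 non-ATPases, 17.7 FPKM for the 8 alpha subunits, 7.96 FPKM for the 5 genes of activators and the inhibitor, 5.57 FPKM for the 7 assembly chaperones and 0.704 FPKM for the 3 immunoproteasome subunits. Psmb10, at a mean of 12.02 FPKM, was above Psma5 (9.64 FPKM), Psma3 (9.19 FPKM), Psmb3 (8.51 FPKM) and Psmd11 (8.49 FPKM).

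**Figure D1:**
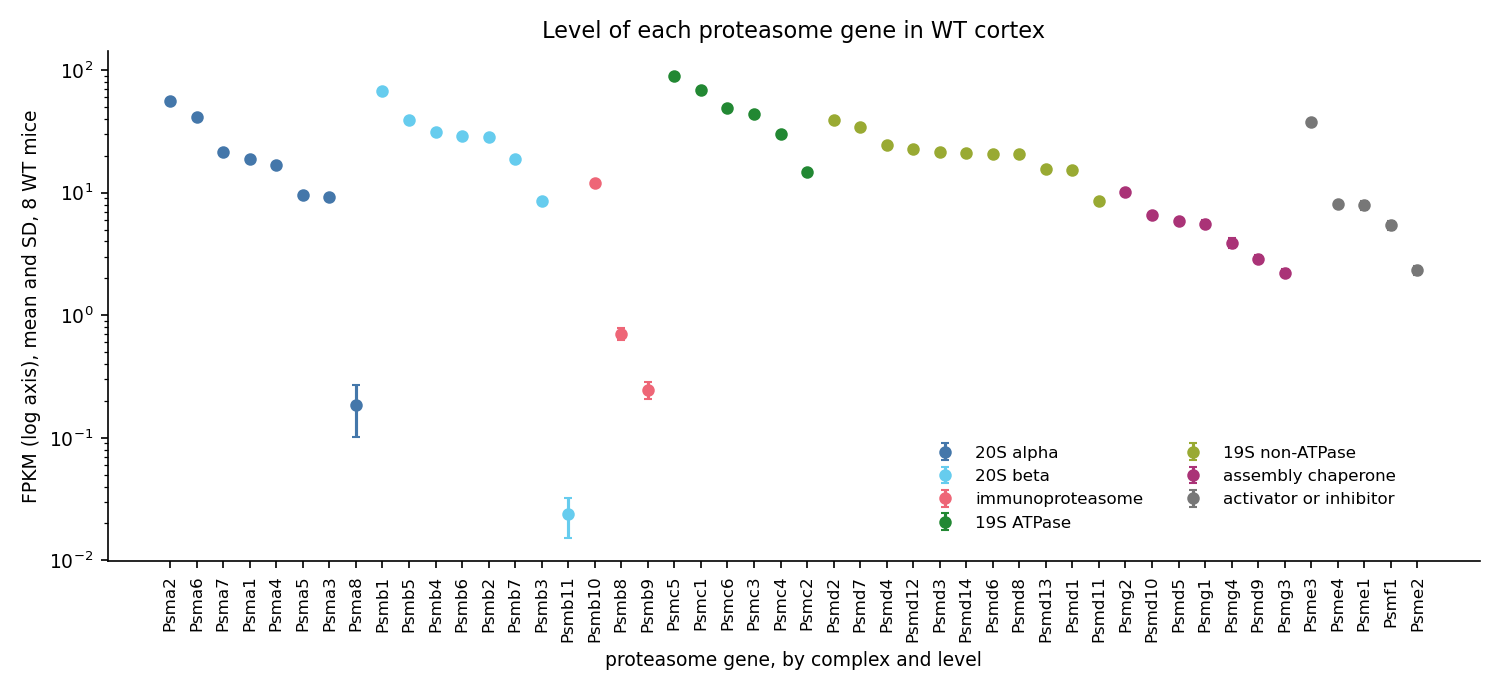
Mean and SD of FPKM over the 8 WT mice (log axis) for each proteasome gene, grouped by complex. Psmc5, at 90.4 FPKM, was the highest, and Psma8 and Psmb11 stood with Psmb8 and Psmb9 under 1 FPKM.

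Psmc5, an ATPase of the cap, had the highest level, at 86.3, 90.8 and 93.9 FPKM in WT (lowest, median and highest mouse). Psmc2, the lowest ATPase by FPKM, had 13.6, 14.99 and 15.6 FPKM. The 6 ATPases each enter the ring once, and by this unit no WT mouse had as much Psmc2 as the lowest had Psmc5. Among the non-ATPases, Psmd2, the scaffold that binds ubiquitin shuttle factors, was the highest at 38.0, 39.0 and 40.1 FPKM, and Psmd11, which forms part of the lid, the lowest at 7.81, 8.57 and 8.79 FPKM.

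In the core, Psmb1, a structural beta subunit, had 64.8, 68.1 and 71.6 FPKM in WT, and Psmb3, another structural beta subunit, had 7.88, 8.60 and 8.87 FPKM. The alpha subunit Psma2 had 51.8, 56.5 and 57.1 FPKM. Psma8, the testis-specific alpha subunit, had 0.110, 0.160 and 0.374 FPKM, from 4 to 33 counts over all 47 libraries. Psmb11 had 0.0129, 0.0242 and 0.0377 FPKM, from 0 to 11 counts, and was not tested. Over genotypes Psma8 had the largest relative spread of the 47 tested members, and its pooled Q140 difference was -0.18 on the log2 scale (SE 0.17, edgeR adjusted p = 0.833).

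Of the regulators, Psme3, the nuclear activator PA28 gamma, had 36.6, 37.6 and 38.7 FPKM in WT, with all 8 mice above every value of Psme2, the PA28 beta subunit, at 2.05, 2.33 and 2.67 FPKM. Psme2 is uncertain, since its near-identical copy Psme2b had a median of 348 counts against 203 for Psme2 and the counting can divide reads between them. Psmg2, an assembly chaperone of the alpha ring, had 9.38, 10.2 and 11.2 FPKM and another such chaperone, Psmg3, had 2.06, 2.20 and 2.49 FPKM. The median of the chaperones was below that of each class of constitutive subunits.

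The order rests on the length by which the authors divided. That length equalled the union of annotated exons for 38 of the 48 genes. Psma2 ranked 4 by FPKM and 30 when reads were divided by its principal transcript, at 18.1 CPM per kilobase. Psmb10 moved to 15.6 and Psmd9, an ATPase chaperone, to 8.10 on that scale. The ATPases then ran from Psmc6 (34.2 CPM per kilobase), with Psmc2 at 41.6, to Psmc5 (95.8). Psmb6 (67.7) was the highest beta subunit, with Psmb1 at 40.2, Psma7 (72.7) the highest alpha subunit and Psmg4 (3.88) the lowest chaperone. Over all members the orders had a Spearman rho of 0.843 across genes, which share the same counts.

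Between genotypes the levels hardly moved. The highest genotype mean FPKM was under 1.1 times the lowest for 44 of the 47 members, with a median ratio of 1.03. The others were Psma8 (1.55 times), Psmb8 (1.19 times) and Psmb9 (1.14 times), 3 genes of low count. All 48 genes together took 0.247% ± 0.0035 of counts in Q140, 0.245% ± 0.0027 in Q140 Ccdc82+/-, 0.245% ± 0.0024 in Q140 Ccdc82-/-, 0.243% ± 0.0021 in Ccdc82+/-, 0.244% ± 0.0036 in Ccdc82-/- and 0.243% ± 0.0022 in WT (SD). The lowest and highest mice of the 6 genotypes overlapped.

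The 3 pairs of active-site subunits give the balance of immune to constitutive form. Psmb8, which replaces Psmb5 at the chymotrypsin-like site, had an FPKM of 2.02% ± 0.342 of that of Psmb5 in Q140, 1.94% ± 0.339 in Q140 Ccdc82+/- and 2.21% ± 0.706 in Q140 Ccdc82-/-, against 1.88% ± 0.249 in Ccdc82+/-, 1.87% ± 0.269 in Ccdc82-/- and 1.81% ± 0.236 in WT. Psmb9, the counterpart of Psmb6 at the caspase-like site, stood at 0.886% ± 0.192 of Psmb6 in Q140 and 0.857% ± 0.145 in WT. Psmb10, the counterpart of Psmb7 at the trypsin-like site, stood at 61.0% ± 3.09 of Psmb7 in Q140 and 64.1% ± 2.42 in WT. The ratios depend on the gene lengths as above. Per kilobase of the principal transcript they were 3.13% for Psmb8 over Psmb5, 0.987% for Psmb9 over Psmb6 and 28.3% for Psmb10 over Psmb7 in WT. The FPKM ratios overlapped between the genotypes.

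In CPM, Psmb5 (ENSMUSG00000022193, chr14:54614119-54618022, minus strand) had 33.5, 34.3 and 36.5 in Q140 (lowest, median and highest mouse), 31.4, 33.8 and 34.2 in Q140 Ccdc82+/- and 31.04, 32.7 and 36.3 in Q140 Ccdc82-/-, against 30.2, 33.7 and 34.8 in Ccdc82+/-, 29.8, 33.2 and 35.4 in Ccdc82-/- and 32.2, 34.3 and 35.7 in WT. Psmb6 (ENSMUSG00000018286, chr11:70525367-70527858, plus strand) had 52.7, 54.5 and 55.5 CPM in Q140, 51.1, 53.8 and 55.9 in Q140 Ccdc82+/- and 53.8, 54.5 and 57.4 in Q140 Ccdc82-/-, against 50.2, 54.3 and 55.5 in Ccdc82+/-, 52.1, 55.7 and 57.5 in Ccdc82-/- and 51.3, 54.4 and 56.0 in WT. For both genes the ranges of all 6 genotypes overlapped. Psmb7 (ENSMUSG00000026750, chr2:38588036-38644087, minus strand) had 63.5, 66.01 and 68.5 CPM in Q140, 62.9, 63.9 and 66.8 in Q140 Ccdc82+/- and 59.5, 64.5 and 67.0 in Q140 Ccdc82-/-, against 62.5, 65.8 and 67.4 in Ccdc82+/-, 62.1, 64.8 and 68.3 in Ccdc82-/- and 61.5, 64.6 and 66.2 in WT. These groups overlapped as well.

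Of the immune counterparts, Psmb8 (ENSMUSG00000024338, chr17:34197721-34201454, plus strand) and Psmb9 (ENSMUSG00000096727, chr17:34181987-34187764, minus strand) lie close together in the MHC. Psmb10 (ENSMUSG00000031897, chr8:105935735-105938444, minus strand) lies elsewhere. Psmb9 had 0.611, 1.01 and 1.17 CPM in Q140, 0.684, 0.887 and 1.37 in Q140 Ccdc82+/- and 0.682, 0.833 and 1.82 in Q140 Ccdc82-/-, against 0.810, 0.842 and 1.096 in Ccdc82+/-, 0.497, 0.890 and 1.02 in Ccdc82-/- and 0.738, 0.868 and 1.23 in WT. Psmb10 had 18.3, 20.2 and 21.5 CPM in Q140, 18.9, 20.3 and 21.3 in Q140 Ccdc82+/- and 18.7, 19.8 and 21.5 in Q140 Ccdc82-/-, against 18.99, 20.2 and 21.7 in Ccdc82+/-, 18.95, 20.1 and 20.5 in Ccdc82-/- and 19.6, 20.4 and 21.4 in WT. In neither gene did any 2 genotypes separate. Psmb9 varied widely around its low mean, at the 62.8 percentile of spread among genes of similar level, a rank explained further on.

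**Figure D2:**
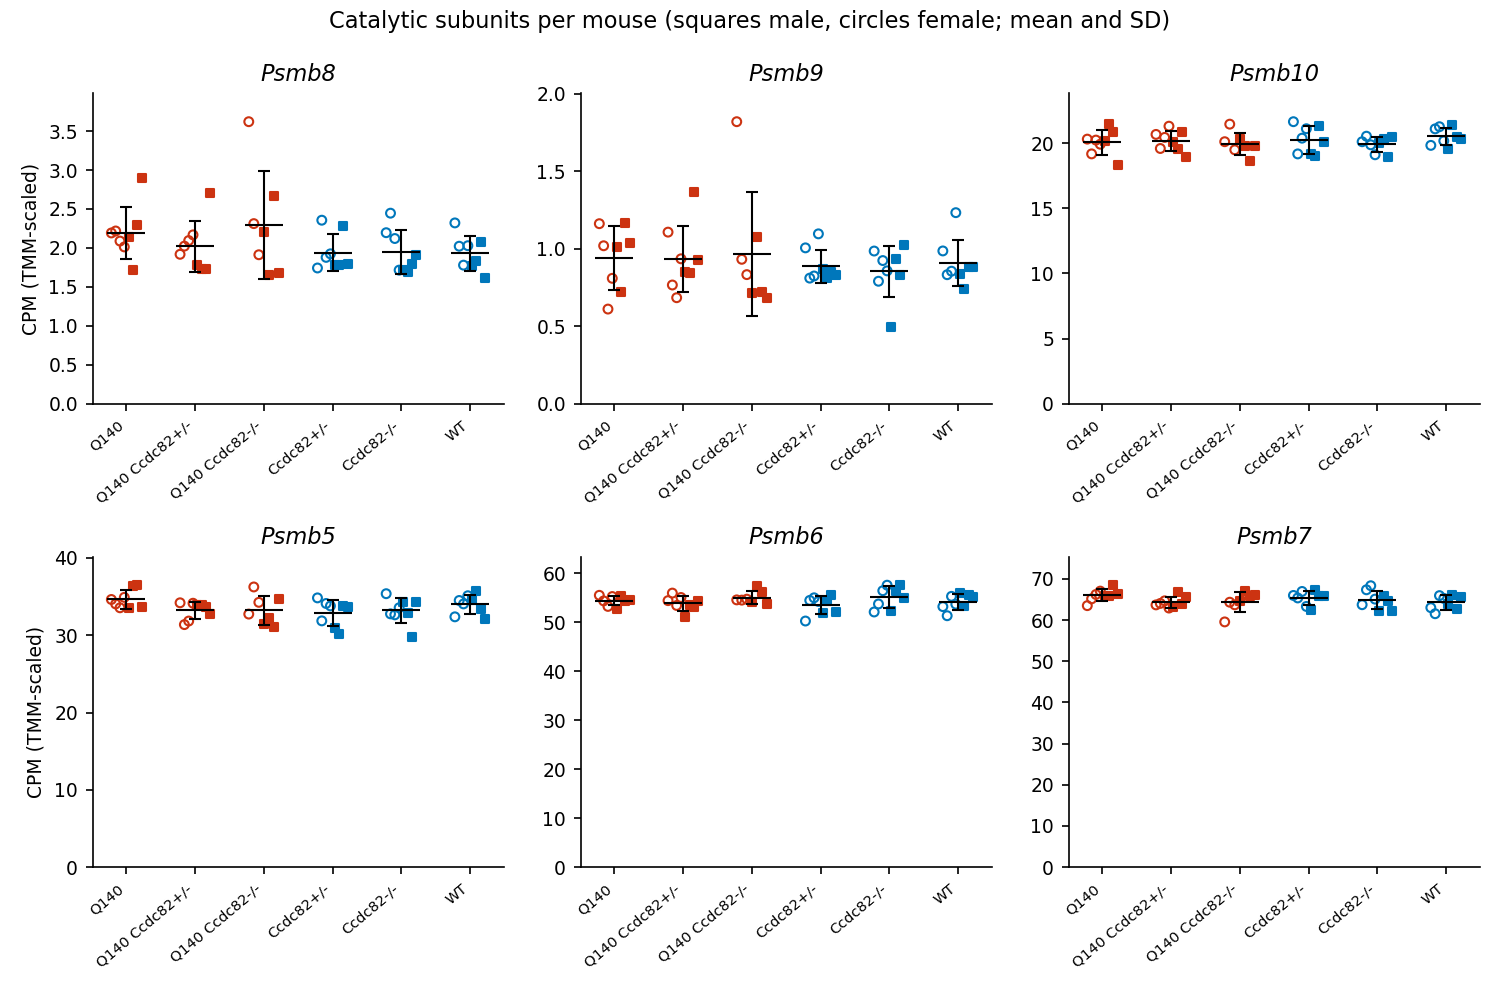
CPM (TMM-scaled) of each mouse for the 3 constitutive active-site subunits and their 3 immune counterparts, by genotype, males as squares and females as circles, with mean and SD. Psmb5, Psmb6, Psmb7 and Psmb10 overlap in all genotypes, and 1 Q140 Ccdc82-/- mouse lies highest for Psmb8 (3.62 CPM) and Psmb9 (1.82 CPM).

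The first comparison asked whether the Q140 allele alters these genes, pooling the 3 Ccdc82 genotypes with it (23 mice) against those without it (24 mice). A gene was called when its edgeR quasi-likelihood p, adjusted by Benjamini-Hochberg over 19174 genes, was under 0.05. None of the 47 members was called, where 0.876% of all genes tested (168) were. At an unadjusted p under 0.05 there were 3 members (6.38%), against 9.18% of all genes. DESeq2 and limma called 0 members. Values above 0 were found for 29 of 47, with a median log2 change of 0.0052, beside 0.00085 over all genes. The median size of the change regardless of sign was 0.0078 for members and 0.027 for all genes, with median standard errors of 0.016 and 0.034.

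The data bound the change closely for most of the complex. For 38 of the 47 members the 95% interval of the pooled Q140 difference lay within 5% either way, and for 43 within 10%. The 4 outside 10% were Psma8, Psmb8, Psmb9 and Psmg4, an alpha-ring assembly chaperone. By complex, 8 of 11 non-ATPases, 3 of 6 ATPases, 5 of 8 alpha subunits, 5 of 7 beta subunits, 3 of 7 chaperones and 3 of 5 activators and inhibitor had values above 0. The log2 changes ran from -0.0075 to 0.021 over the ATPases, from -0.0091 to 0.027 over the non-ATPases and from -0.0034 to 0.015 over the constitutive beta subunits. Over the chaperones they ran from -0.031 (Psmg3) to 0.042 (Psmg4), and over the activators and the inhibitor from -0.035 (Psmf1) to 0.050 (Psme1). The ATPase with the highest value was Psmc3, at 0.021 (SE 0.013, edgeR adjusted p = 0.685). The alpha subunits other than Psma8 were highest for Psma5, at 0.031 (SE 0.023, adjusted p = 0.751), and lowest for Psma1, at -0.013 (SE 0.014, adjusted p = 0.865).

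A few members lie on the chromosomes of the altered genes or share exon sequence with neighbours. On chromosome 5, Psmc2 lay 13.0 Mb, Psmd9 88.3 Mb and Psmg3 104.9 Mb from Htt, and on chromosome 9 Psma4 lay 41.7 Mb from Ccdc82. Their pooled Q140 changes were -0.0066 (SE 0.015) for Psmc2, 0.0066 (SE 0.022) for Psmd9, -0.031 (SE 0.039) for Psmg3 and 0.020 (SE 0.018) for Psma4. Psmb7 shared 405 exon bases with Nek6, Psmc3 shared 215 with Slc39a13 and Psmd13, a lid subunit, 342 with Sirt3, each on the opposite strand. Reads of such pairs cannot be told apart unless the counting used strand.

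**Figure D3:**
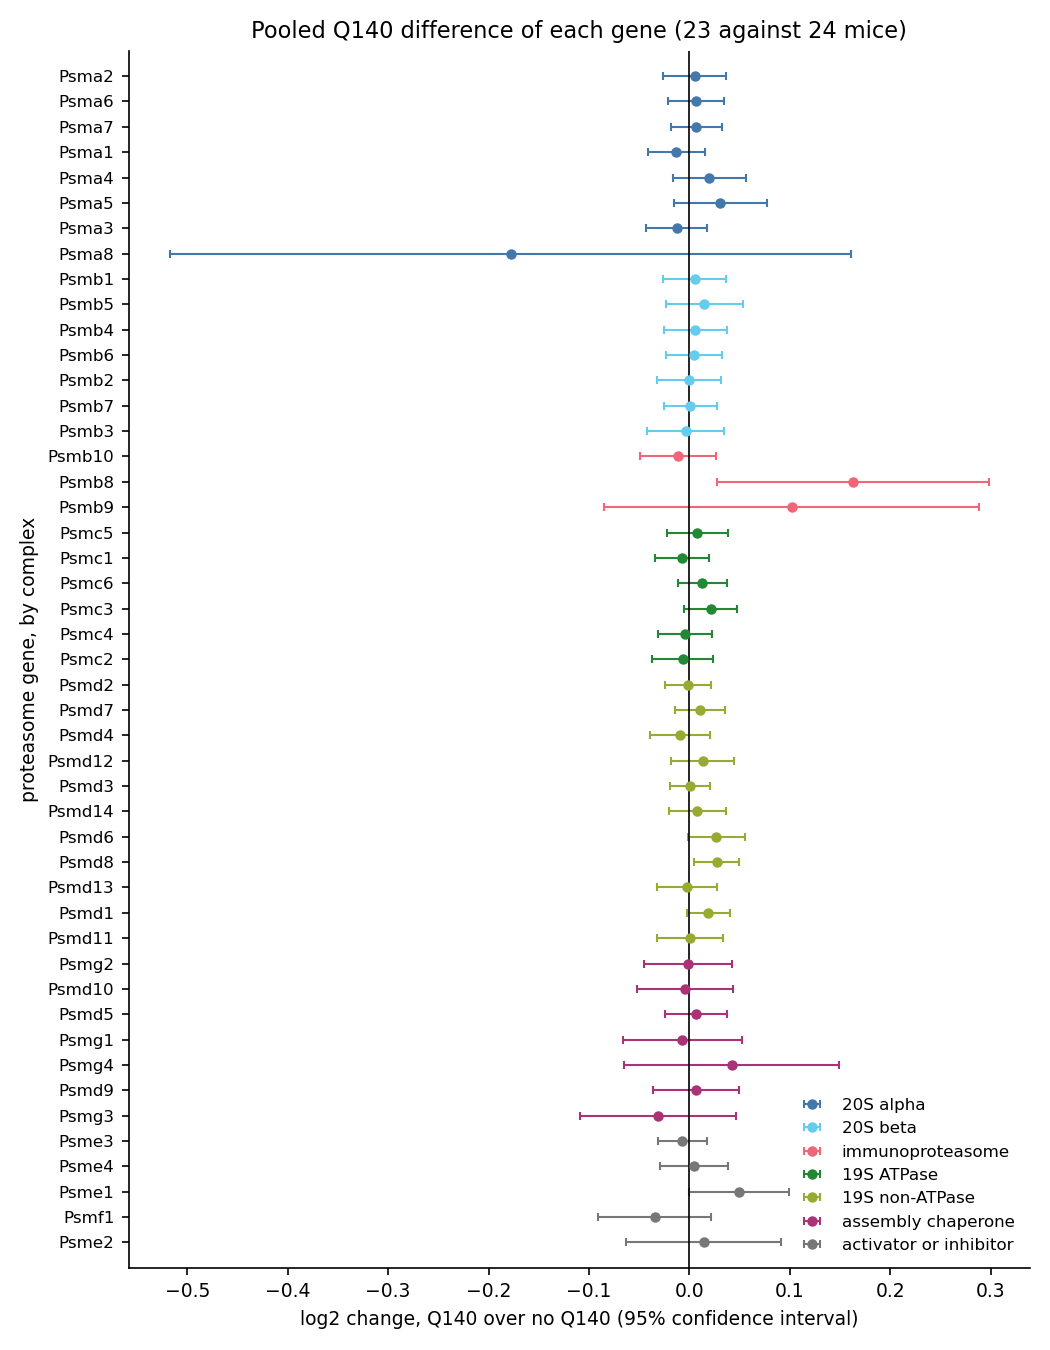
Log2 change with its 95% confidence interval, mice with Q140 (23) over mice without it (24), for the 47 tested proteasome genes. Most points sit within a narrow band around 0, and the wide intervals belong to Psma8, Psmb8 and Psmb9.

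The 5 members with the smallest p in this comparison were Psmd8, Psmb8, Psme1, Psmd6 and Psmd1. Psmd8, a lid subunit, had 61.5, 63.6 and 66.1 CPM with Q140 (lowest, median and highest), against 59.4, 62.2 and 66.1 CPM without. The 2 ranges overlapped, with 7 of 24 mice without Q140 below every mouse with it, and 19 of 23 mice with Q140 were above the mean of mice of their sex and Ccdc82 genotype without it. The log2 change was 0.027 (SE 0.011, 95% interval 0.0050 to 0.050), or 1.91%, with adjusted p = 0.371. The limma fit of log2(FPKM + 1) gave the smallest adjusted p of any alternative, 0.0598.

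Psmb8 is the immune chymotrypsin-like subunit. It had 1.66, 2.09 and 3.62 CPM in mice with Q140, against 1.61, 1.86 and 2.45 CPM in mice without. By genotype the values were 1.72, 2.17 and 2.89 CPM in Q140, 1.73, 1.97 and 2.699 CPM in Q140 Ccdc82+/- and 1.66, 2.21 and 3.62 CPM in Q140 Ccdc82-/-. They were 1.74, 1.84 and 2.36 CPM in Ccdc82+/-, 1.69, 1.85 and 2.45 CPM in Ccdc82-/- and 1.61, 1.93 and 2.32 CPM in WT. All 6 groups overlapped, and the upper ends were higher in the 3 groups with Q140. The log2 change was 0.16 (SE 0.067, 95% interval 0.028 to 0.30), or 11.96%, with adjusted p = 0.387 and 14 of 23 mice above their counterparts. Without the single mouse at 3.62 CPM, a Q140 Ccdc82-/- female, it was 0.12 with adjusted p = 0.612.

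Psme1, the PA28 alpha activator induced by interferon together with Psmb8, had 16.7, 18.2 and 20.7 CPM with Q140, against 15.9, 17.4 and 20.7 CPM without. The ranges overlapped, with 18 of 23 mice above their counterparts and a log2 change of 0.050 (SE 0.025, adjusted p = 0.544). Psmd6, a lid subunit, averaged 48.7 ± 1.46 CPM with Q140 (SD, n = 23) and 47.9 ± 1.38 CPM without (n = 24), a log2 change of 0.027 (SE 0.014, adjusted p = 0.592). Psmd1, the second large scaffold of the base, averaged 114.8 ± 2.65 CPM with Q140 and 113.2 ± 2.59 CPM without, a log2 change of 0.019 (SE 0.011, adjusted p = 0.636). For both the mice of the 2 sides overlapped.

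The other active-site subunits showed no difference past the test. Psmb9 had 0.611, 0.927 and 1.82 CPM with Q140, against 0.497, 0.856 and 1.23 CPM without. Its log2 change was 0.10 (SE 0.093, 95% interval -0.085 to 0.29, adjusted p = 0.822), and 0.026 without the same Q140 Ccdc82-/- female. Psmb9 shares 212 exon bases with Tap1 on the opposite strand, and the strand setting of the counting was not given. Psmb10 had a log2 change of -0.011 (SE 0.019). Its 95% interval, -0.049 to 0.027, was narrower than that of Psmb9. Psmb5 had a change of 0.015 (SE 0.019), Psmb6 one of 0.0046 (SE 0.014) and Psmb7 one of 0.0011 (SE 0.013).

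One mouse, the Q140 Ccdc82-/- female numbered 1 in its group, carried the highest values of both low immune subunits. Of the tested members 6 stood at either end of the 47 mice there, 7 in another mouse, and 2 in the median mouse. It was the highest of 47 mice for Psmb8, Psmb9 and Psmd8 and the lowest for Psma6, an alpha subunit, Psmb7 and Psmf1, the proteasome inhibitor PI31. Of 15 antigen processing genes, 12 were highest of all mice there. Tap1 had 5.24 CPM there, against a median of 2.69 and a highest value of 4.07 CPM in the other mice. Psmb10 in that mouse ranked 25 of 47. Its summed excitatory neuron markers ranked 47, its meningeal fibroblast markers 1 (34.6 CPM), its endothelial markers 4, its interneuron and oligodendrocyte markers both 43, its microglial markers 45 (259.6 CPM) and its lymphocyte markers 36 (0.890 CPM). Its library total, 50837116 counts, was near the median. The part of these markers in the result was not tested.

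Each Ccdc82 genotype was also examined alone. These comparisons share control mice with each other and with the pooled one, so their values are set side by side only. In Q140 against WT 0 of 47 members were called (0.0313% of all genes), with 33 of 47 values above 0 and all 11 non-ATPases among them. Psmd1 had 111.5, 117.0 and 119.8 CPM in Q140, against 108.2, 110.9 and 117.1 CPM in WT. All 8 Q140 mice lay above the WT median while the ranges overlapped, and the log2 change was 0.054 (SE 0.018, edgeR adjusted p = 0.434). In Q140 Ccdc82+/- against Ccdc82+/- 0 members were called (0.0313% of all genes), with 30 of 47 above 0. In Q140 Ccdc82-/- against Ccdc82-/- 0 members were called (0.0209%), with 23 of 47 above 0. Psmb8 differed by 0.19 (SE 0.11) in Q140 against WT, by 0.057 (SE 0.12) in Q140 Ccdc82+/- against Ccdc82+/- and by 0.24 (SE 0.12, adjusted p = 0.9997) in Q140 Ccdc82-/- against Ccdc82-/-. Without the Q140 Ccdc82-/- female described above, the last value was 0.10 (adjusted p = 0.9999).

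Loss of Ccdc82 was compared in the same way. Pooled over mice with and without Q140, 0 of 47 members were called in Ccdc82+/- (0.00522% of all genes, which is Ccdc82 itself), and 4 (8.51%) had an unadjusted p under 0.05, against 5.31% of all genes. Values below 0 were found for 36 of 47 members, with a median of -0.0082, beside 9689 of 19174 genes. By complex they were 7 of 7 tested constitutive beta subunits, 7 of 7 chaperones, 3 of 3 immunoproteasome subunits, 10 of 11 non-ATPases, 4 of 8 alpha subunits, 3 of 6 ATPases and 2 of 5 genes of activators and the inhibitor. Psmb5 had a log2 change of -0.054 (SE 0.023), Psmg3 one of -0.11 (SE 0.047), Psmg2 one of -0.059 (SE 0.026) and Psmb2, another beta subunit, one of -0.040 (SE 0.019), each with edgeR adjusted p = 0.905. Psmb2 was named after its value was seen. The Psmb5 mice of Q140 Ccdc82+/- and Q140, and those of Ccdc82+/- and WT, overlapped by the values given above.

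With both copies of Ccdc82 lost, 0 members were called in the pooled comparison (0.00522% of all genes), and 22 of 47 values were above 0. At an unadjusted p under 0.05 there was 1 member (2.13%), against 4.65% of all genes. Psmc6, a cap ATPase named after its value was seen, had a log2 change of 0.030 (SE 0.015) and Psmb5 one of -0.046 (SE 0.024), both with adjusted p = 0.9999. The single comparisons gave 0 calls among members in Q140 Ccdc82+/- against Q140, in Q140 Ccdc82-/- against Q140, in Ccdc82+/- against WT and in Ccdc82-/- against WT, each with 0.00522% of all genes called. At an unadjusted p under 0.05 the members numbered 0, 1 (2.13%), 1 (2.13%) and 0 in that order. The shares of all genes were 5.42%, 4.09%, 3.60% and 3.23%.

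The interactions asked whether Ccdc82 loss changes the Q140 difference. Neither called a member, nor any gene (0% of 19174), in edgeR or DESeq2, and each had 1 member at an unadjusted p under 0.05. For the interaction with Ccdc82+/- that was 2.13% of members, against 3.52% of all genes. For Psmd1 the term with Ccdc82+/- was -0.054 on the log2 scale (SE 0.026, adjusted p = 0.9998). For Psmd11 the term with Ccdc82-/- was -0.081 (SE 0.040, adjusted p = 0.9998). For Psmd1 the Q140 group averaged 116.2 ± 3.15 CPM, Q140 Ccdc82+/- 113.6 ± 1.54 CPM, Ccdc82+/- 113.5 ± 1.995 CPM and WT 111.9 ± 2.98 CPM (SD, n = 8 each).

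What the members shared most plainly was a small spread between mice. Within genotype and sex, the SD of log2 CPM had a median of 0.050 over the 43 members other than Psma8 and the immunoproteasome subunits, against 0.12 over all genes tested. Because spread falls with level, each was also ranked among genes within 0.5 log2 units of its own level. Its median percentile was 14.1, with 42 of 43 members under the 50th and 29 under the 25th percentile. The smallest SDs were those of the non-ATPases Psmd3 (0.026), Psmd8 (0.029) and Psmd1 (0.032). The largest were those of Psma8 (0.53), Psmb9 (0.30) and Psmb8 (0.23). Psmf1 stood at the 82.2 percentile with an SD of 0.10, the 1 of the 43 members above the 50th. These ranks describe the 47 libraries and were not tested.

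**Figure D4:**
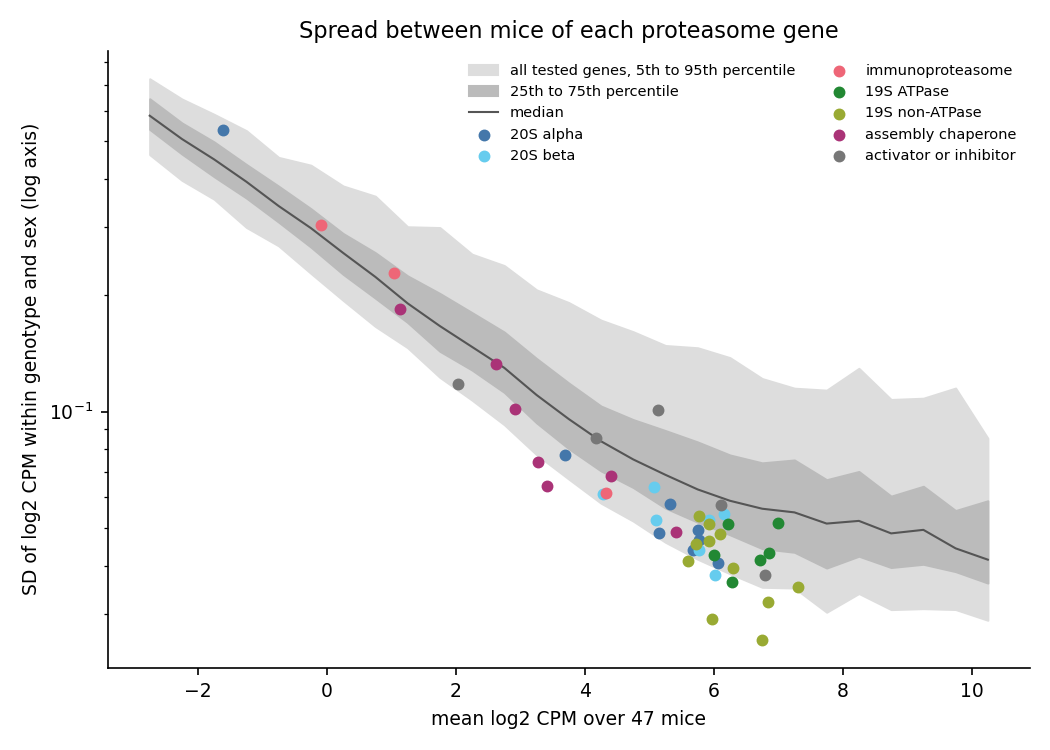
SD of log2 CPM within genotype and sex (log axis) against mean log2 CPM over 47 mice for the tested proteasome genes, with percentiles of all genes of the same level behind them. Of the 43 members other than Psma8 and the immunoproteasome subunits, 29 lie under the 25th percentile. Psmf1, at the 82.2 percentile, lies in the upper part.

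Immune subunits were next compared mouse by mouse, as log2 CPM less the mean of each genotype and sex, over 9 pairs of genes. Psmb9 and Tap1, which overlap as given above, had a Pearson r of 0.518 (permutation p = 0.01026, adjusted over the 9 pairs 0.062) and a Spearman rho of 0.519 (permutation p = 0.00193, adjusted 0.0174). Without the 2 mice farthest from the median of Psmb9, r was 0.379. Psmb8 and Tap1 had an r of 0.506 (permutation p = 0.01378, adjusted 0.062) and a rho of 0.398 (permutation p = 0.02122, adjusted 0.0955), and r was 0.419 without the 2 farthest mice. Without the Q140 Ccdc82-/- female described above, r was 0.354 for Psmb9 and 0.334 for Psmb8 with Tap1, both with adjusted permutation p = 0.223, and the rho of Psmb9 with Tap1 was 0.424 (adjusted permutation p = 0.108), so both rest in part on that mouse.

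Among the subunits themselves no pair passed the adjustment within genotype and sex. Psmb8 and Psmb9 had an r of 0.243 and a rho of 0.220 (permutation p = 0.26058 and 0.20606, adjusted 0.335 and 0.371). Psmb8 and Psmb5 had an r of -0.329 and a rho of -0.241 (permutation p = 0.04814 and 0.16264, adjusted 0.144 and 0.366). Within library-name numbers, a label shared by several libraries whose meaning was not given, the r of Psmb8 with Psmb5 was -0.715 (adjusted permutation p = 0.0106) and that of Psmb8 with Psmb10 was -0.591 (adjusted permutation p = 0.0369), against -0.273 (adjusted 0.23) without that step. The PA28 partners Psme1 and Psme2 had an r of 0.276 and a rho of 0.272 (permutation p = 0.08175 and 0.0936, adjusted 0.184 and 0.281).

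Sex gave the only calls among these genes, and only under some settings. In male against female mice, pooled over genotype, 0 of 47 members were called in edgeR, where 10.5% of all genes (2018) were. At an unadjusted p under 0.05 there were 2 members (4.26%), against 25.99% of all genes. Libraries that shared a library-name number were all of the same sex, and edgeR treated them as independent. With that number as a random block in limma voom, 851 of all genes and 0 of the 47 members were called between the sexes. A replicate block of the title numbers within sex called 0 members as well. Psmf1 averaged 36.2 ± 2.13 CPM in males (SD, n = 24) and 34.3 ± 2.58 CPM in females (n = 23), with the male mean higher in 5 of 6 genotypes. Its lowest, median and highest were 31.8, 36.5 and 39.1 CPM in males, against 29.1, 34.1 and 38.5 CPM in females, so the ranges overlapped. In Q140 the order was the other way, at 34.4 ± 1.94 CPM in males and 35.6 ± 2.48 CPM in females (SD, n = 4 each), whereas in WT it was 37.01 ± 2.56 CPM in males and 33.3 ± 1.87 CPM in females. The log2 difference was 0.078 (SE 0.028, adjusted p = 0.0625). It passed with the plate column as a term (0.096, adjusted p = 0.00818), in DESeq2 (0.078, adjusted p = 0.04998) and in limma on log2(FPKM + 0.1) (0.088, adjusted p = 0.0490) and log2(FPKM + 1) (0.075, adjusted p = 0.0491). Leaving out 1 mouse at a time, it passed without Q140 F2, Q140 M2, Q140 Ccdc82-/- F2, Ccdc82+/- F1, Ccdc82-/- F1, Ccdc82-/- M4 or WT M1 (F and M for female and male, numbered as in the titles), with adjusted p of 0.0242 to 0.0439. Psmf1 was named here after its values were seen.

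Psmd3, a non-ATPase, averaged 107.8 ± 2.14 CPM in males and 106.5 ± 1.64 CPM in females, a log2 value of 0.019 apart with an SE of 0.0097 (adjusted p = 0.218), and passed in limma on log2(FPKM + 0.1) (0.028, adjusted p = 0.0265) and log2(FPKM + 1) (0.027, adjusted p = 0.0255). Those limma fits, like those of Psmf1, took the deposited FPKM without TMM scaling. Over all genes the median log2 difference of males over females was -0.0010 in the main fit. Over the alternatives it ran from -0.00090 to 0.0083, and the part of this shift in the limma calls was not tested. For Psme1 the log2 difference was 0.054 with an SE of 0.025 (adjusted p = 0.152), with 18.3 ± 1.17 CPM in males and 17.6 ± 0.933 CPM in females. For Psmb8 it was -0.12 with an SE of 0.067 (adjusted p = 0.237), with 1.97 ± 0.363 CPM in males and 2.13 ± 0.379 CPM in females and the male mean above the female in 1 of 6 genotypes. The difference of the pooled Q140 effect between males and females called 0 members and 0% of all genes in edgeR and DESeq2, with 3 members at an unadjusted p under 0.05. The smallest p was that of Psma4, an alpha subunit, at 0.090 (SE 0.035, adjusted p = 0.9998).

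**Figure D5:**
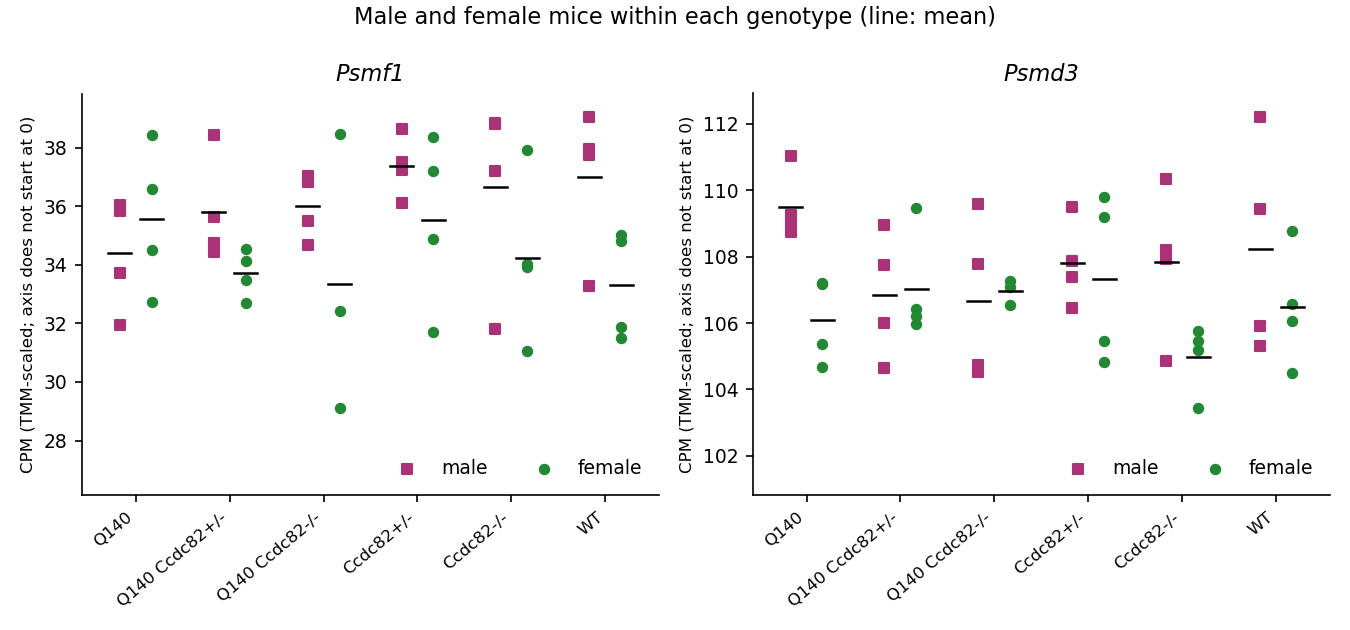
CPM (TMM-scaled) of male and female mice by genotype, with a line at each mean, for Psmf1 and Psmd3, the members called under some settings; the axes do not start at 0. Male means of Psmf1 lie above female means in 5 of 6 genotypes, and single mice of both sexes overlap.

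Genes that act with the proteasome were taken from a list of 39 symbols, of which 35 were in the files and tested. None of the 35 was called in any comparison of genotypes in edgeR. In the pooled Q140 comparison 24 had values above 0, with a median of 0.0036, and 5 had an unadjusted p under 0.05 (14.3%, against 9.18% of all genes). Pomp, which matures the core, had a log2 change of 0.015, and Nfe2l1, the factor that raises proteasome genes, one of -0.0066. Without the Q140 Ccdc82-/- female described above it was 25 of 35. Between the sexes 4 of 35 were called (11.4%, beside 10.5% of all genes), 2 higher and 2 lower in males, and 3 are described. Adrm1, a ubiquitin receptor of the cap, was higher in males (0.080, adjusted p = 0.0126), as was Ufd1l, a cofactor of the segregase Vcp (0.060, adjusted p = 0.0325). Akirin2, an adaptor for nuclear import of proteasomes, was lower in males (-0.075, adjusted p = 0.0101). The limit of library-name numbers given above holds for these calls between the sexes.

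Of the 15 antigen processing genes that work downstream of the immunoproteasome, 0 were called in any comparison of genotypes in edgeR. In the pooled Q140 comparison 14 had values above 0, with a median of 0.040, and 1 had an unadjusted p under 0.05 (6.67%, against 9.18% of all genes). The Q140 Ccdc82-/- female described above was the highest of 47 mice for 12 of the 15, and without it 12 had values above 0, with a median of 0.014, and 0 an unadjusted p under 0.05. Tap1 had a log2 change of 0.056 (SE 0.079). In males against females 3 of 15 were called (10.5% of all genes were), all lower in males: B2m, the light chain of MHC class I, at -0.092 (adjusted p = 0.0203), and the chaperones Calr at -0.15 (adjusted p = 0.0423) and Canx at -0.052 (adjusted p = 0.0163). All 3 were highest of 47 mice in the Q140 Ccdc82-/- female described above, and its part in these calls was not tested. B2m had 99.1 CPM there, against at most 88.1 CPM in other mice, Calr 385.7 against 367.1 CPM and Canx 344.4 against 343.6 CPM. The limit of library-name numbers holds for these calls as well. Over the 47 proteasome members in the same comparison, 23 values were above 0 and 24 below.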

How the data were processed

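The deposited tables hold raw read counts per gene and FPKM, both made by the authors. Per the labels' protocols RNA was extracted with a Qiagen RNeasy kit and libraries were made with the Illumina TruSeq stranded protocol. Per the submitters' processing notes the build was GRCm38 (mm10) and the tools included HTSeq 0.12.3, STAR 2.7.5c and SAMtools 1.10. The sources used here do not give the strand setting or how gene lengths were set.

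Each library was treated as 1 mouse. P-values measure the spread between these samples. Low genes were removed with filterByExpr (at least 10 counts, total of at least 15), libraries were scaled by TMM and fitted in edgeR 4.0.16 (R 4.3.3; robust quasi-likelihood) with 6 genotype means and sex, all 47 libraries in 1 fit. Adjusted p-values are Benjamini-Hochberg over 19174 genes, called under 0.05. Log2 CPM used a prior count of 2. Alternatives were DESeq2 1.42.0 and its size factors, no filter, limma 3.58.1 on log2 of the deposited FPKM plus 0.1 or 1, a replicate block, plate column, library-name number, no sex term, only the groups compared, and each mouse left out. Correlations used 100000 permutations of mice within genotype and sex. Those within library-name numbers instead permuted 18 residual components, left after the genotype-by-sex and library-name means were removed. Lengths of principal transcripts, and lists and correlations without the Q140 Ccdc82-/- female 1, were alternatives chosen after seeing the data. The script was tested on simulated data.

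Members and lists were chosen with earlier results of these data known. Named are the active-site subunits, the highest and lowest WT level of each complex, the 5 smallest p of the pooled Q140 comparison and the 3 largest and smallest SDs. Other proteasome and antigen processing genes named are those called, plus Pomp, Nfe2l1 and Tap1; some listed genes are not reported here. Any other member given a value was named after its values were seen. Gene coordinates are those of GENCODE on GRCm38 and promoter windows those of RefSeq, GRCm38.p6.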

Additional observations from a re-analysis of the deposited data

Results flagged for a closer look

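Over 24 proteasome genes and 6 genotypes, 9 of 144 groups had a mouse whose gap to its nearest neighbour was large for the range of its group. Chance gives about 1 in 20 such groups.

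Psmb8 had 2.699 CPM in the Q140 Ccdc82+/- male numbered 4, against 1.73 to 2.17 CPM in the other 7 mice of its group. Psmb9 had 1.82 CPM in the Q140 Ccdc82-/- female 1, against 0.682 to 1.08 CPM in the other mice, and 0.497 CPM in the Ccdc82-/- male 1, against 0.790 to 1.02 CPM. That Q140 Ccdc82-/- female also had the lowest Psmg2 of its group, at 9.69 CPM, against 10.6 to 11.2 CPM.

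In Q140 Ccdc82-/-, Psmc2 was at 69.7 CPM in female 3, against 73.4 to 75.9 CPM, and Psme2 at 3.23 CPM in female 2, against 3.98 to 4.48 CPM. Psmd11 was at 50.1 CPM in the Q140 female 2, against 54.6 to 58.5 CPM. In Ccdc82-/-, Psmd1 was at 109.2 CPM in female 2, against 113.6 to 116.9 CPM, and Psmd2 at 168.6 CPM in female 4, against 154.6 to 160.1 CPM.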

How the results depend on the processing

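In every comparison of genotypes, 0 members were called under each alternative run. In males against females, where edgeR called 0, 1 was called with the plate column (Psmf1), 1 in DESeq2 (Psmf1) and 2 in limma on log2(FPKM + 0.1) and on log2(FPKM + 1) (Psmf1 and Psmd3), and 0 to 1 with each mouse left out. All genes called between the sexes numbered 851 in limma voom when library-name numbers entered as a random block, against 2018. Those in Q140 against WT numbered 24 in DESeq2, against 6 in edgeR, and 4 to 17 with a mouse left out. In Q140 Ccdc82+/- against Ccdc82+/- they numbered 2 with the plate column and 3 over only the groups compared, against 6, and 2 to 17 with a mouse left out, and in Q140 Ccdc82-/- against Ccdc82-/- 2 under the replicate block (title number within sex), against 4.

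Of the values, the pooled Q140 change of Psmb7 (0.0011) turned negative with 14 single mice left out (lowest -0.0030, highest 0.0071). Psmb9 with Psmb10 turned to an r of -0.016 within library-name numbers, and Psmb10 with Psmb7 to -0.015 without the Q140 Ccdc82-/- female 1. The cause was not tested. Titles number mice within sex. Deviations of same-numbered mice had a median r of 0.0151 over 115 pairs (lowest -0.205, highest 0.288), with 11 pairs above 0.1. Other mice of the same sex had a median of -0.00421 over 345 pairs. A median over pairs cannot exclude that the title number is a pairing. With the title number as a replicate block, 0 members were called in every comparison, and the pooled Q140 change of Psmb8 was 0.16 (edgeR adjusted p = 0.402). The library-name number had a consensus correlation of 0.142 over 19 numbers. Counts of Psma8 (4 to 33) and Psmb9 (22 to 92) limit their precision.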
